A study of Mus musculus with 12 samples.

Results

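Txnip and its relatives were followed across N2a cells, an established mouse neuroblastoma line, that were given brain-derived extracellular vesicles (BDEVs) or only vehicle. The 7 genes, of 24318 gene rows in each deposited table, were chosen by name: Txnip and Arrdc1 to Arrdc4 of the alpha-arrestin family, and Mlx and Mlxip, whose products drive Txnip transcription. Each of 3 groups had 4 libraries of polyadenylated RNA. One group received SE-BDEVs, with SE for status epilepticus (a prolonged seizure) in the title of the series, another received CON-BDEVs, which the labels do not spell out, and the third received vehicle. Dose and duration are not stated in the labels used here. The labels also do not say that replicates are independent cultures, and the p-values therefore reflect variation among libraries that could be technical in part. The BDEV libraries of the 2 kinds are compared with the same 4 Vehicle libraries.

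Txnip was put forward with results of an earlier analysis of these data known. It is treated here as chosen for its rise in CON-BDEV against Vehicle. Its differences are therefore given as a description, with no p-value. Its other comparisons share the Vehicle or the CON-BDEV libraries, and the intervals given take no account of the choice. The other 6 genes were added as relatives or regulators, with those results known. Expression is in FPKM, the authors' fragment counts scaled to transcript length and to library size, a scale on which different genes can be compared.

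Alpha-arrestins are adaptor proteins that share the arrestin fold with the beta-arrestins of receptor signalling. Most carry short proline and tyrosine motifs that recruit ubiquitin ligases of the NEDD4 family to membrane cargo, which is then internalised. Txnip, the thioredoxin-interacting protein, binds thioredoxin and also promotes removal of the glucose transporter Slc2a1 (GLUT1) from the cell surface. When glucose 6-phosphate accumulates, the transcription factor MondoA (Mlxip), paired with its partner Mlx, moves to the nucleus and binds a carbohydrate response element in the Txnip promoter, so that Txnip transcript is a common readout of intracellular glucose supply. Arrdc4 is another known target of these factors.

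The stretch before the Txnip start site is shown because the known input of Mlx and Mlxip acts there, and that of Arrdc4 because this second known target was barely expressed in these cells. Sequences are from RefSeq on GRCm38.p6, a newer build than the mm9 of the deposited tables, and all 7 genes matched by symbol. Each runs 5′ to 3′ on the gene's strand over the 250 bases that end just before the start site. Capitals mark the element form, which is 2 CACGNG half-sites with 5 bases of any kind between them, the E-box CACGTG and the CCAAT box, searched on both strands, with no overlap among the matches shown.
Txnip, chr3:96557707-96557956, plus strand: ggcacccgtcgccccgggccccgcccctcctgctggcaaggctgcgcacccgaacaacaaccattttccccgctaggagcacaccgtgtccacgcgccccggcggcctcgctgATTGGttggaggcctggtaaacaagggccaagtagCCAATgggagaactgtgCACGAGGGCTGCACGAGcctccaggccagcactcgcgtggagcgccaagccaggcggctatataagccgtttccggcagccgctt
Arrdc4, chr7:68749239-68749488, minus strand: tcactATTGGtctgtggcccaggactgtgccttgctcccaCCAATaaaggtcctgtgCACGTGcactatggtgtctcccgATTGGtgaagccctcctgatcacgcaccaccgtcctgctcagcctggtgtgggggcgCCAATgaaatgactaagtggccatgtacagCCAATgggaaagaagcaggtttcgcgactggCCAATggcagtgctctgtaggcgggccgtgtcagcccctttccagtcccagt

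The Txnip stretch held 1 match to the element form, CACGAGGGCTGCACGAG at chr3:96557872-96557888, beginning 85 bases before the start site, and 2 CCAAT boxes beginning 137 and 102 bases before it. That form was present in 15 of 32851 stretches of the same kind (0.0457%), the E-box in 6.02% and the CCAAT box in 33.8%. The Arrdc4 stretch held 6 CCAAT boxes and 1 E-box, the latter beginning 193 bases before the start site. The Mlx stretch also held 1 E-box. A match describes letters in the window and is no evidence of binding.

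Txnip transcript was higher in cells given CON-BDEVs than in cells given vehicle. The 4 Vehicle libraries measured 10.04, 8.64, 8.36 and 8.92 FPKM in the order of their replicate numbers, and the 4 CON-BDEV libraries 11.9, 14.1, 12.9 and 12.4 FPKM. Every CON-BDEV library thus lay above every Vehicle library, with no overlap. The mean rose from 8.99 ± 0.736 to 12.8 ± 0.947 FPKM (SD, n = 4 each), which is 42.8% higher. On the log2(FPKM + 1) scale the difference was 0.47 ± 0.06 (standard error from limma), with a 95% interval from 0.33 to 0.61, and 19 of 11320 genes tested, Txnip among them, had a difference at least that large. With all 12 libraries in 1 fit the difference was 0.47 ± 0.12 (standard error), and Txnip no longer passed the threshold, an adjusted p of 0.05.

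In cells given SE-BDEVs Txnip was spread more widely. The SE-BDEV libraries measured 10.9, 15.6, 8.61 and 12.1 FPKM in the order of their replicate numbers. Replicates 1, 2 and 4 lay above every Vehicle library, while replicate 3 fell among them, so the groups overlapped. The mean was 11.8 ± 2.91 FPKM (SD, n = 4), 31.2% above Vehicle, and the difference on the log2 scale was 0.33 ± 0.13 (standard error; 95% interval 0.03 to 0.63). This difference depends on single libraries: it was 0.20 without SE-BDEV replicate 2 and 0.46 without SE-BDEV replicate 3. It also uses the Vehicle libraries by which Txnip is treated as chosen, which can push it up. In the authors' deposited table, made with Cuffdiff, Txnip is marked as significant for both SE-BDEV (log2 fold change 0.39) and CON-BDEV (0.51), whereas in limma it passed for CON-BDEV and did not pass for SE-BDEV. Since Txnip is treated as chosen for its CON-BDEV rise, that contrast is no evidence of a difference between the kinds of vesicle.

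Between the kinds of vesicle, Txnip in SE-BDEV overlapped Txnip in CON-BDEV. The SE-BDEV minus CON-BDEV difference was −0.14 ± 0.12 on the log2 scale (standard error), with a 95% interval from −0.40 to 0.13. It was −0.27 without SE-BDEV replicate 2 and −0.01 without SE-BDEV replicate 3. The interval leaves room for Txnip being lower or higher with SE-BDEVs, so equal responses are not shown. Treating Txnip as chosen for high CON-BDEV values means that the choice can push this difference down. Over all genes, limma called 0 of 11312 in this comparison, with 296 (2.62%) at an unadjusted p under 0.05.

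**Figure D1:**
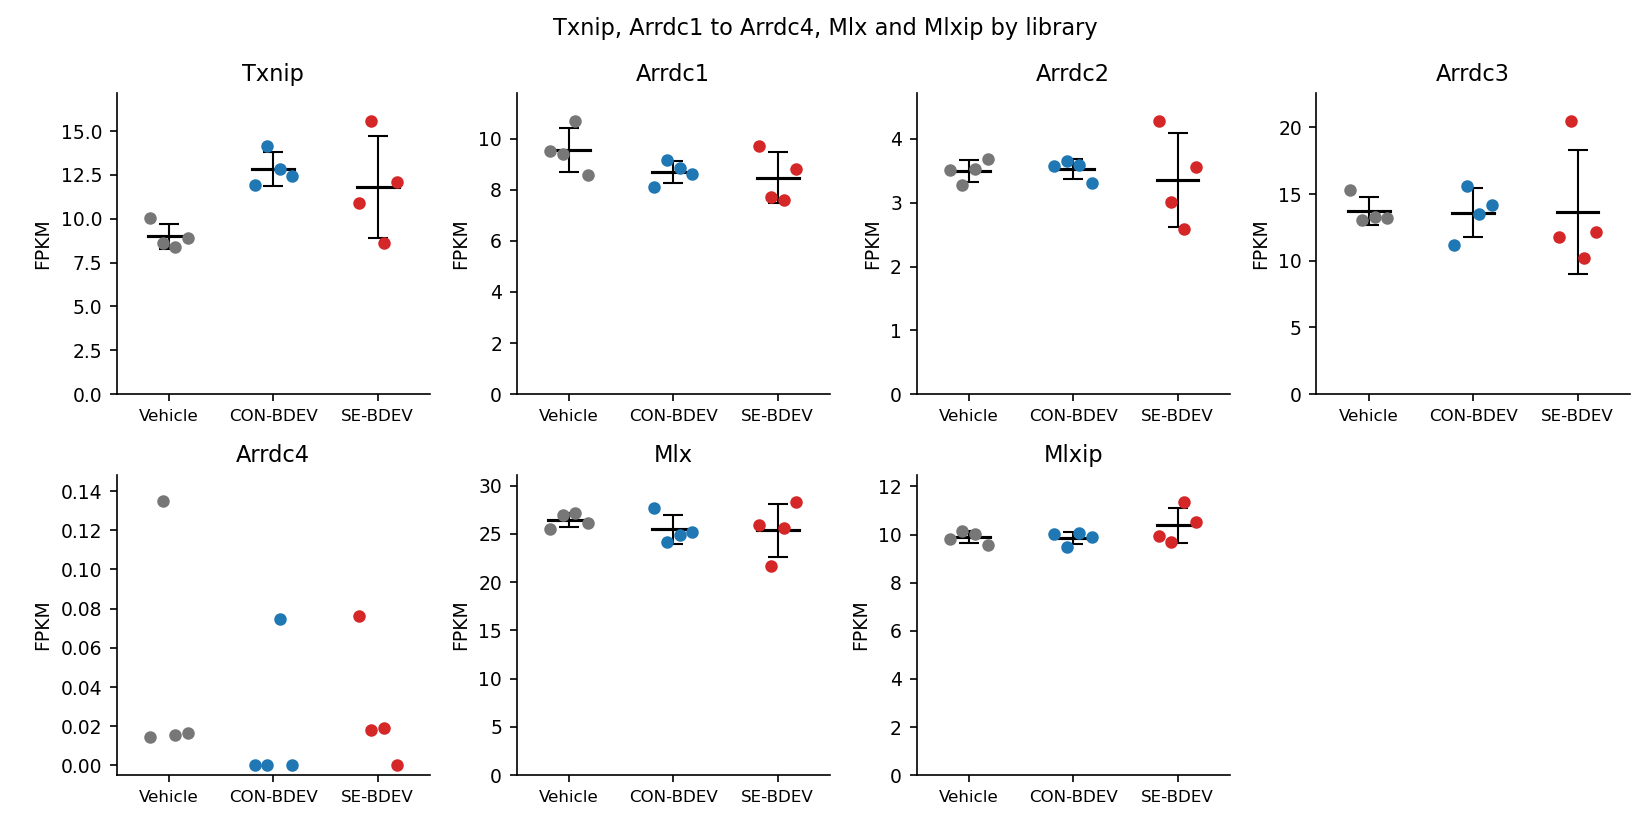
FPKM of each of the 7 genes (vertical axis, linear) in every library, by group, with points spread sideways in the order of replicate numbers; horizontal bars are means and whiskers 1 SD (n = 4), left out for Arrdc4, which was listed at 0 in some libraries. Txnip in CON-BDEV (11.9 to 14.1 FPKM) lies above all Vehicle libraries (8.36 to 10.04 FPKM), while every other gene overlaps between groups.

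The locus of Txnip in the deposited tables (chromosome 3, 96359690 to 96370724, mm9) also holds Gm15441, a long noncoding RNA on the opposite strand. The library kit keeps the strand, but no source used here states the strand setting of the authors' processing, and fragments of the pair may not be fully separated. Gm15441 was listed at 0 to 0.0423 FPKM in Vehicle, at 0.0455 to 0.0885 FPKM in CON-BDEV and at 0 to 0.137 FPKM in SE-BDEV. These levels are a small part of the Txnip level in each group. Gm15441 was singled out after its values were seen.

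The alpha-arrestin Arrdc3 (chromosome 13, 81022682 to 81035303), which is known to govern beta-adrenergic receptor trafficking and energy expenditure, was the most abundant family member in Vehicle. It measured 15.3, 13.1, 13.3 and 13.2 FPKM in the Vehicle libraries and 11.2, 15.6, 13.5 and 14.2 FPKM in the CON-BDEV libraries. The SE-BDEV libraries measured 11.8, 20.5, 10.2 and 12.2 FPKM, so replicate 2 was the highest and replicate 3 the lowest of all 12. The group means were 13.7 ± 1.06, 13.6 ± 1.83 and 13.7 ± 4.63 FPKM for Vehicle, CON-BDEV and SE-BDEV (SD, n = 4 each). Against Vehicle the log2 differences were −0.02 (95% interval −0.20 to 0.17; limma adjusted p = 0.942) in CON-BDEV and −0.05 (95% interval −0.41 to 0.31; limma adjusted p = 0.917) in SE-BDEV. The SE-BDEV value rests on single libraries: it was −0.25 without SE-BDEV replicate 2 (limma adjusted p = 0.0990) and 0.06 without SE-BDEV replicate 3 (limma adjusted p = 0.906). Against CON-BDEV, Arrdc3 in SE-BDEV differed by −0.03, and by −0.23 without SE-BDEV replicate 2 (limma adjusted p = 0.632).

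Arrdc1 (chromosome 2, 24780871 to 24790801), which is known to recruit the ESCRT component Tsg101 and to drive budding of vesicles at the plasma membrane, was slightly lower in both treated groups without passing. It measured 9.53, 9.42, 10.7 and 8.57 FPKM in Vehicle, 8.12, 9.15, 8.85 and 8.62 FPKM in CON-BDEV, and 9.72, 7.71, 7.61 and 8.82 FPKM in SE-BDEV. The groups overlapped, with 1 CON-BDEV library and 2 SE-BDEV libraries below every Vehicle library. The log2 differences from Vehicle were −0.12 ± 0.06 (standard error; limma adjusted p = 0.319) in CON-BDEV and −0.16 ± 0.08 (standard error; limma adjusted p = 0.401) in SE-BDEV.

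Arrdc2 (chromosome 8, 73359036 to 73363619), a less studied member, was expressed at a lower level. Its libraries measured 3.52, 3.27, 3.53 and 3.68 FPKM in Vehicle and 3.57, 3.65, 3.59 and 3.31 FPKM in CON-BDEV, 2 nearly coinciding ranges. In SE-BDEV they measured 4.28, 3.01, 2.58 and 3.55 FPKM, with 1 library above and 2 below the whole Vehicle range. The log2 differences from Vehicle were 0.01 (95% interval −0.12 to 0.14; limma adjusted p = 0.942) in CON-BDEV and −0.06 (95% interval −0.30 to 0.18; limma adjusted p = 0.837) in SE-BDEV.

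Arrdc4 (chromosome 7, 75881879 to 75894124) was at the edge of detection. It was listed at 0.0147, 0.135, 0.0155 and 0.0163 FPKM in Vehicle, at 0, 0, 0.0750 and 0 FPKM in CON-BDEV, and at 0.0761, 0.0179, 0.0189 and 0 FPKM in SE-BDEV. With the depths estimated here these values stand for roughly 0.939 fragments in the median library and 8.17 in the highest, so no fold is given, and a difference among such low levels was not detectable at this depth. Its highest library reached 0.135 FPKM, so it stayed below 1 FPKM in all 12 libraries. It did not pass the filter of a mean of 1 FPKM and was not tested. Arrdc5, the remaining alpha-arrestin, was listed at 0 in 4 of 4 Vehicle, 3 of 4 CON-BDEV and 2 of 4 SE-BDEV libraries.

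Neither gene of the transcription factor pair that drives Txnip passed the threshold. Mlx (chromosome 11, 100948603 to 100956749) measured 25.6, 26.9, 27.1 and 26.2 FPKM in Vehicle, 27.7, 24.1, 24.8 and 25.1 FPKM in CON-BDEV, and 25.9, 21.6, 25.7 and 28.3 FPKM in SE-BDEV. The groups overlapped. Its log2 differences from Vehicle were −0.05 (95% interval −0.15 to 0.04; limma adjusted p = 0.536) in CON-BDEV and −0.06 (95% interval −0.21 to 0.09; limma adjusted p = 0.707) in SE-BDEV. The deposited locus of Mlx is joined with that of Psmc3ip, a recombination factor gene with group means of 24.1 to 25.2 FPKM, so fragments of those neighbours may not be fully separated either.

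Mlxip (chromosome 5, 123844806 to 123907940), which encodes MondoA, measured 9.81, 10.2, 10.03 and 9.57 FPKM in Vehicle and 10.02, 9.48, 10.1 and 9.88 FPKM in CON-BDEV. In SE-BDEV it measured 9.96, 9.70, 11.4 and 10.53 FPKM, with replicates 3 and 4 above every Vehicle library. Its log2 differences from Vehicle were 0.00 (95% interval −0.09 to 0.08; limma adjusted p = 0.967) in CON-BDEV and 0.06 (95% interval −0.06 to 0.18; limma adjusted p = 0.625) in SE-BDEV. The SE-BDEV replicate in which Mlxip was highest, replicate 3, was the one in which Txnip was lowest. This did not recur in the other groups. Mlxip was highest in Vehicle replicate 2 and CON-BDEV replicate 3, while Txnip was lowest in Vehicle replicate 3 and CON-BDEV replicate 1. Mlxipl, the related factor ChREBP of liver and fat, was listed at 0 to 0.0768 FPKM over the 12 libraries and was not tested.

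Of the 6 genes that passed the filter, Txnip passed the threshold in CON-BDEV against Vehicle, where 2.84% of 11320 genes tested passed in either direction and 1.02% rose. None of the 6 passed in SE-BDEV against Vehicle, where 0.919% of 11311 genes passed and 0.292% rose, or in SE-BDEV against CON-BDEV, where 0% of 11312 did. Groups did not overlap for Txnip alone in CON-BDEV against Vehicle (11.9% of all genes), and for 0 of the 6 in SE-BDEV against Vehicle (10.2%) and in SE-BDEV against CON-BDEV (1.39%). Since the genes were chosen with these results known, the counts describe them and nothing is read from them. The median log2 difference of the 6 was −0.01 in CON-BDEV and −0.05 in SE-BDEV, beside 0.00 and 0.01 over all genes tested. For the 5 besides Txnip, the 95% intervals of the SE-BDEV minus CON-BDEV difference all included 0, the widest being that of Arrdc3, −0.37 to 0.30.

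**Figure D2:**
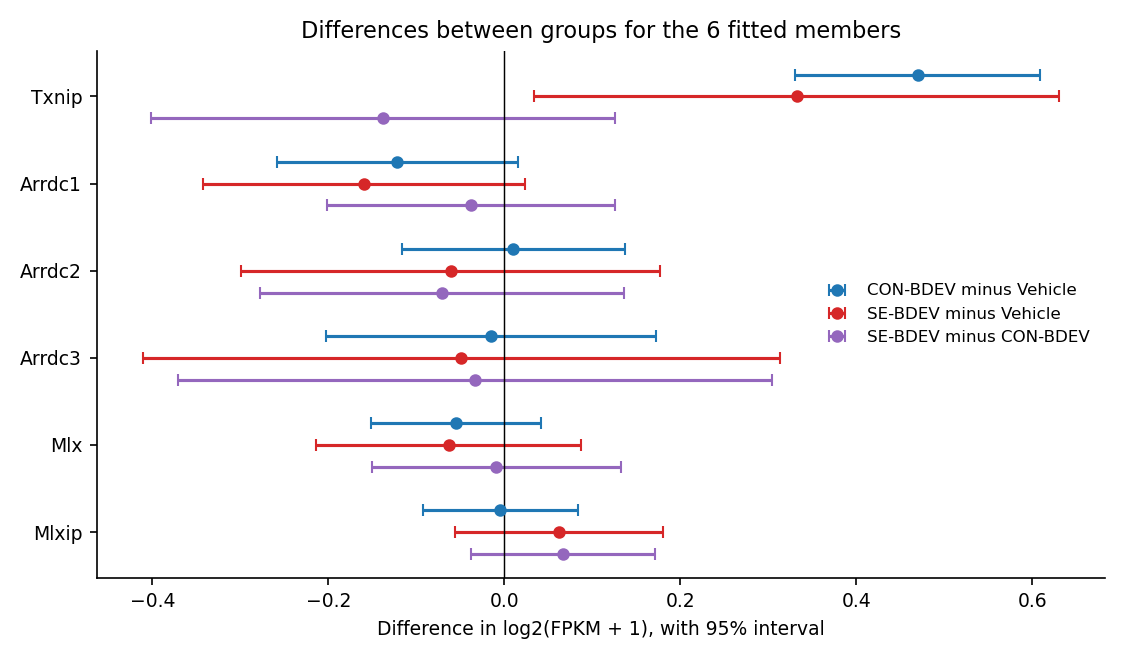
Differences in log2(FPKM + 1) between groups (horizontal axis) for the 6 genes that were fitted; points are limma estimates and bars 95% intervals, with 4 libraries a group. Txnip stands at 0.47 for CON-BDEV and 0.33 for SE-BDEV against Vehicle, while every interval of the other 5 genes spans 0.

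The order of levels within a group shifted with Txnip. In Vehicle the order from high to low was Mlx, Arrdc3, Mlxip, Arrdc1, Txnip, Arrdc2 and Arrdc4, and the ranges of Mlxip, Arrdc1 and Txnip overlapped from neighbour to neighbour. In CON-BDEV Txnip stood next after Arrdc3, above Mlxip and Arrdc1 in 4 of 4 libraries each, with its range overlapping that of Arrdc3. In SE-BDEV it held the same place, above Mlxip in 3 of 4 and above Arrdc1 in 4 of 4 libraries, with its range overlapping those of Arrdc3, Mlxip and Arrdc1. In Vehicle, Txnip was above Mlxip in 1 of 4 and above Arrdc1 in 2 of 4 libraries. Arrdc2 was below Txnip and Arrdc4 was below Arrdc2 without overlap in each of the 3 groups.

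The spread between replicates was uneven. The within-group SD of Txnip on the log2(FPKM + 1) scale was 0.10 in Vehicle, 0.10 in CON-BDEV and 0.33 in SE-BDEV. For Arrdc3 it was 0.10, 0.19 and 0.41, and for Arrdc2 0.05, 0.05 and 0.24. In SE-BDEV it was 0.15 for Arrdc1, 0.16 for Mlx and 0.09 for Mlxip. The median over all genes tested was 0.06 in Vehicle, 0.07 in CON-BDEV and 0.09 in SE-BDEV. The 4 fitted arrestins and Mlx thus lay above the median in SE-BDEV, and Mlxip lay near it. This was not limited to SE-BDEV. Txnip, Arrdc1 (0.12) and Arrdc3 also lay above the median in Vehicle, and Txnip, Arrdc3 and Mlx (0.08) in CON-BDEV. In SE-BDEV, replicate 2 had the highest and replicate 3 the lowest value of both Txnip and Arrdc3, and in CON-BDEV replicate 2 was the highest and replicate 1 the lowest of both.

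The 5 genes most like Txnip over the 12 libraries were Gadd45g, 2010204K13Rik, Pdcd4, Vamp1 and Endov. Likeness was the root mean square difference of log2(FPKM + 1), each gene centred on its mean, among 11312 genes, and it ran from 0.114 for Gadd45g to 0.147 for Endov. Txnip itself deviated from its own mean by a root mean square of 0.266. Gadd45g, a stress-induced regulator of growth arrest, measured 16.2, 15.6, 16.3 and 17.7 FPKM in Vehicle, 20.3, 22.4, 20.5 and 21.6 FPKM in CON-BDEV, and 19.0, 24.6, 17.9 and 21.7 FPKM in SE-BDEV. Pdcd4, a translation inhibitor, had group means of 12.3 ± 0.845, 14.6 ± 1.91 and 14.1 ± 2.49 FPKM for Vehicle, CON-BDEV and SE-BDEV (SD, n = 4 each). The synaptobrevin gene Vamp1 had means of 2.79, 3.71 and 3.57 FPKM, and the endonuclease gene Endov 4.66, 5.44 and 5.43 FPKM. All 5 were highest in SE-BDEV replicate 2, the library in which Txnip was highest, which their choice by likeness to Txnip largely fixes. Of the family, Arrdc3 lay nearest to Txnip, at 0.231 with 1162 genes nearer, and Mlx (0.331) and Arrdc1 (0.330) lay farthest.

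**Figure D3:**
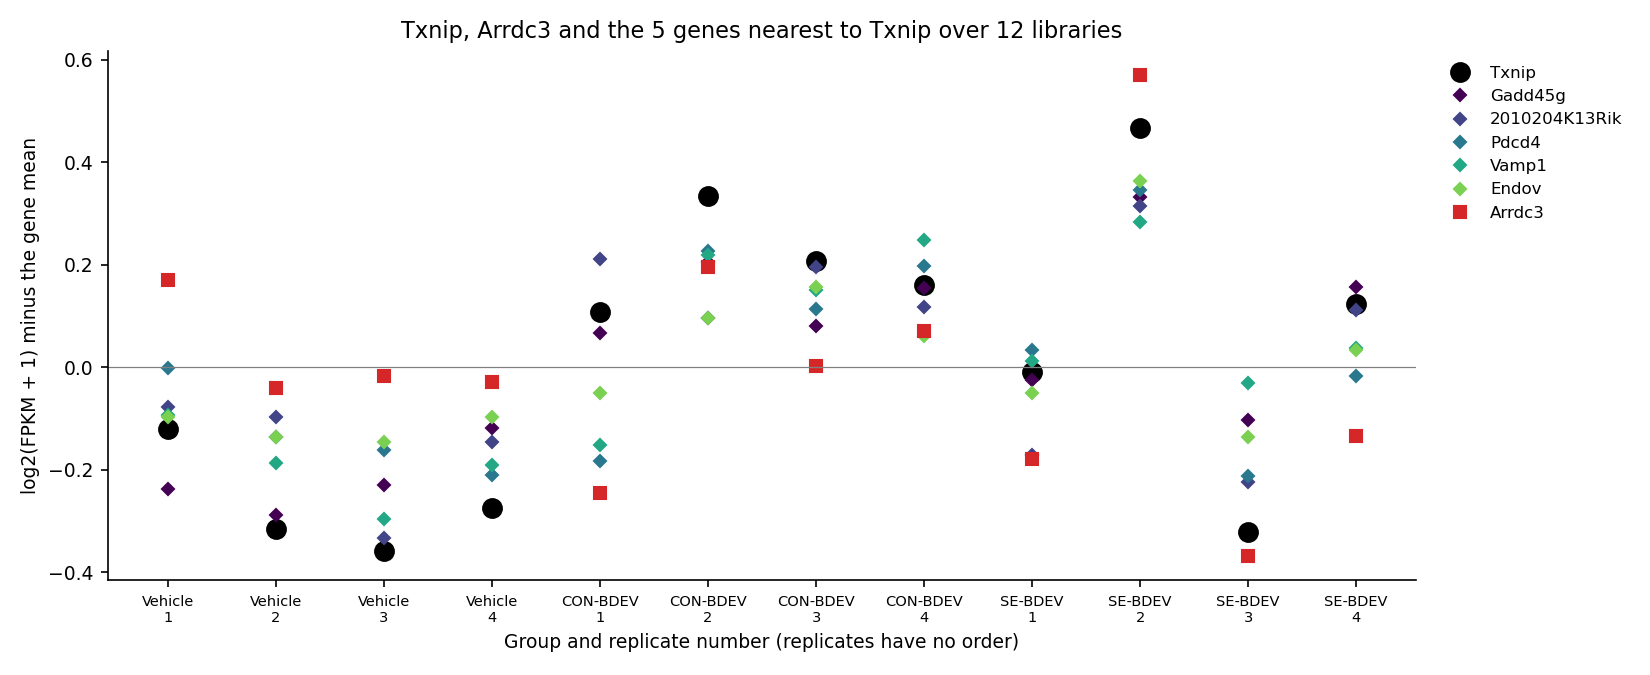
Log2(FPKM + 1) minus the gene's own mean (vertical axis) in the 12 libraries (horizontal axis, by group and replicate number) for Txnip, Arrdc3 and the 5 genes nearest to Txnip. Txnip is low in Vehicle and high in CON-BDEV, and in SE-BDEV all 7 genes peak in replicate 2, which for the 5 nearest genes follows largely from how they were chosen; Arrdc3 shares that peak but is not low in Vehicle.

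Other genes around Txnip were taken from 10 lists, which hold 99 distinct genes, 76 of them tested in each comparison. In CON-BDEV against Vehicle 0 rose and 6 fell (7.89%, beside 2.84% of all genes), and in SE-BDEV 0 rose and 2 fell (2.63%, beside 0.919%). In SE-BDEV against CON-BDEV 0 of the 76 passed in limma. The lists were written with earlier results known, among them the fall of fatty acid synthesis genes, so these shares are no independent evidence.

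Among known targets of the glucose-sensing factors, 0 of 9 tested genes rose in either treated group. Over all genes tested, 1.02% rose in CON-BDEV and 0.292% in SE-BDEV, so 0 of 9 says little about these targets. Of the 9, 3 fell in CON-BDEV and 1 in SE-BDEV, where 2.84% and 0.919% of all genes passed in either direction. Acly, Acaca and Fasn, enzymes of fatty acid synthesis that are also driven by SREBP1, fell in CON-BDEV with log2 differences of −0.20, −0.18 and −0.37 (limma adjusted p = 0.00440, 0.0392 and 0.00732), and Acly fell in SE-BDEV (−0.19; limma adjusted p = 0.0441). The calls of Acly and Fasn in CON-BDEV were made with each of the 8 libraries left out, that of Acaca in 1 of 8 and that of Acly in SE-BDEV in 2 of 8. Klf10, an early glucose-responsive repressor and a target without that SREBP1 link, measured 21.8 ± 0.802, 22.6 ± 1.40 and 22.1 ± 3.24 FPKM in Vehicle, CON-BDEV and SE-BDEV (SD, n = 4 each). The median log2 difference of the list was 0.00 in CON-BDEV and 0.01 in SE-BDEV, beside 0.00 and 0.01 over all genes tested.

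The binding partner of Txnip did not move past the threshold. Txn1, thioredoxin itself, measured 233 ± 3.12, 237 ± 11.2 and 226 ± 9.23 FPKM in Vehicle, CON-BDEV and SE-BDEV (SD, n = 4 each), a level far above that of Txnip. Of 14 genes of the thioredoxin system, 0 rose and 1 fell in each treated group, beside 2.84% of all genes passing in CON-BDEV and 0.919% in SE-BDEV. It was Txnrd3, a thioredoxin reductase with a glutaredoxin domain that is best known from testis. Txnrd3 measured 16.3, 16.5, 15.3 and 16.3 FPKM in Vehicle, 13.3, 12.4, 13.8 and 12.04 FPKM in CON-BDEV, and 14.5, 12.2, 12.5 and 12.6 FPKM in SE-BDEV. Neither treated group overlapped Vehicle, and the log2 difference was −0.30 in both (limma adjusted p = 0.00850 in CON-BDEV and 0.0388 in SE-BDEV). Lack of overlap with Vehicle was common, at 11.9% of all genes tested in CON-BDEV and 10.2% in SE-BDEV. The call in CON-BDEV was made with each of the 8 libraries left out, and that in SE-BDEV in 2 of 8. The cytosolic reductase Txnrd1 measured 130 ± 2.96, 134 ± 5.07 and 138 ± 4.00 FPKM in Vehicle, CON-BDEV and SE-BDEV (SD, n = 4 each); its SE-BDEV libraries all lay above Vehicle, with a log2 difference of 0.09 (limma adjusted p = 0.236).

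Genes of glucose entry and use showed small differences. Slc2a1, the transporter that Txnip helps to internalise, measured 16.02 ± 1.40, 15.7 ± 0.801 and 16.2 ± 1.25 FPKM in Vehicle, CON-BDEV and SE-BDEV (SD, n = 4 each). Hk2, the inducible hexokinase that makes glucose 6-phosphate, measured 32.0 ± 1.24, 34.0 ± 2.21 and 34.2 ± 2.71 FPKM, with log2 differences of 0.08 and 0.09 (limma adjusted p = 0.386 and 0.484). Of 11 tested genes of this list, the 1 to pass was Tkt, a transketolase of the pentose phosphate pathway. Tkt fell in CON-BDEV by a log2 difference of −0.17 (limma adjusted p = 0.0219) and passed in 4 of 8 fits that left out a library. Over all genes tested, 2.84% passed in CON-BDEV and 0.919% in SE-BDEV.

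Partners and other inputs of the alpha-arrestins gave few calls, but calls were few over all genes too, 2.84% in CON-BDEV and 0.919% in SE-BDEV. At those shares sets this small would mostly hold none, so nothing is read from the counts of 0 below. Of 8 tested NEDD4-family ligases and ESCRT partners, 0 passed in either treated group; Itch, a ligase that ubiquitinates Txnip, had log2 differences of −0.01 and 0.02, and Tsg101 of 0.03 and 0.01, for CON-BDEV and SE-BDEV. The beta-arrestin genes Arrb1 and Arrb2 differed from Vehicle by 0.04 and 0.00 in CON-BDEV and by 0.09 and 0.00 in SE-BDEV on the log2 scale, and 0 of the 2 passed. In the MAX and MLX network 0 of 9 tested genes passed, among FOXO factors and targets 0 of 8, among AMPK subunits 0 of 5 and among glucocorticoid-responsive genes 0 of 8; the receptor gene Nr3c1 measured 12.96, 13.3 and 13.8 FPKM on average in Vehicle, CON-BDEV and SE-BDEV, and Foxo1 was below 0.01 FPKM in each group mean. Of 3 tested cargo genes, Itgb4, an integrin that Arrdc3 is known to direct to degradation, fell in CON-BDEV by a log2 difference of −0.32 (5.60 ± 0.368 to 4.27 ± 0.275 FPKM, SD, n = 4 each; limma adjusted p = 0.0190; passed in 4 of 8 fits that left out a library). The beta-adrenergic receptor genes did not pass the filter on low values and were not tested.

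**Figure D4:**
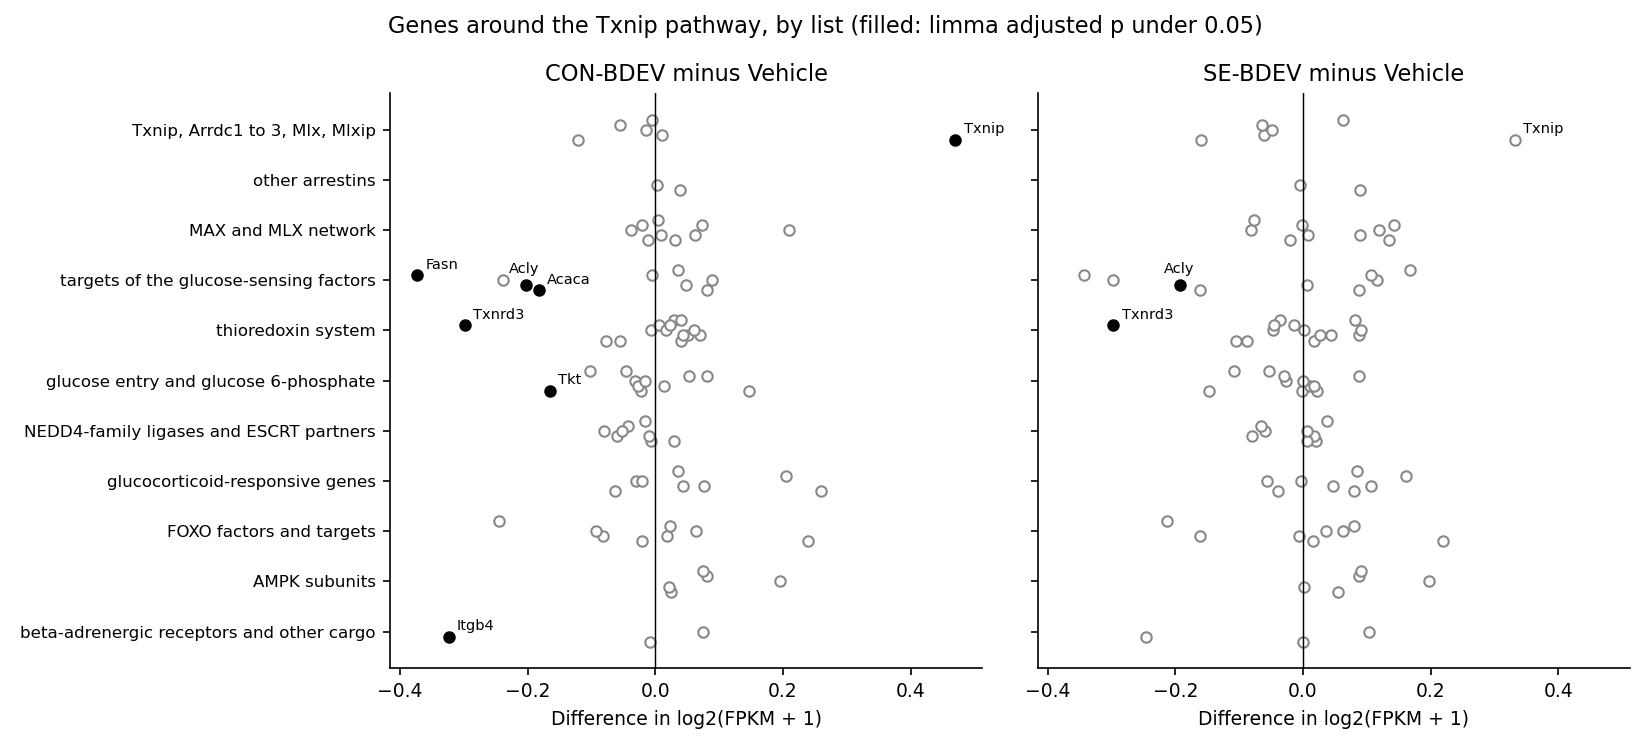
Differences in log2(FPKM + 1) from Vehicle (horizontal axis) for CON-BDEV (left) and SE-BDEV (right), 1 point per tested gene, by list; filled points have a limma adjusted p under 0.05, and Hk2 stands in 2 lists. The 6 filled points of the lists in CON-BDEV and the 2 in SE-BDEV all lie below 0, and Txnip (0.47 and 0.33) lies to the right of every listed gene.

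The element form found before Txnip was present before 14 named genes in all, of which 8 were tested. In CON-BDEV 1 of the 8 passed, beside 2.84% of all genes. It was Txnip, which is treated as chosen for that rise. The known element of Txnip also set the form searched for, so nothing is read from it. The other 7 differed from Vehicle by −0.25 to 0.09 on the log2 scale. In SE-BDEV 1 of the 8 passed, beside 0.919% of all genes: Nfkb2, an NF-kappaB subunit gene, which fell by a log2 difference of −0.26 and differed by −0.25 in CON-BDEV without passing. The 7 besides Txnip differed by −0.26 to 0.13 in SE-BDEV.

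Library facts that touch these values are as follows. Approximate depths were 14800000 to 16200000 fragments in Vehicle, 12300000 to 14100000 fragments in CON-BDEV and 12900000 to 15500000 fragments in SE-BDEV, so every CON-BDEV library was shallower than every Vehicle library; the part of depth in the Txnip difference was not tested. At these depths Txnip rests on about 314 to 595 fragments a library and Arrdc2 on about 78.5 to 136. By library name, SE-BDEV and CON-BDEV libraries alternate and the Vehicle libraries all come after them. What that order stands for is not stated, and it cannot be told apart from treatment in the comparisons with Vehicle. The 6 sympathetic neuroblastoma markers were all expressed, with a summed level of 281 to 296 FPKM in Vehicle, 331 to 355 FPKM in CON-BDEV and 317 to 335 FPKM in SE-BDEV, so they too were higher in the treated groups, and their part in the Txnip difference was not tested. Of markers of cells that vesicles from brain could bring, the 5 astrocyte markers summed to 1.02 to 1.25 FPKM in Vehicle, 0.716 to 0.896 FPKM in CON-BDEV and 0.744 to 1.08 FPKM in SE-BDEV. Most of that sum was Aldh1l1, with means of 1.03, 0.691 and 0.778 FPKM in Vehicle, CON-BDEV and SE-BDEV. Gfap, the defining astrocyte filament gene, went the other way at a level close to 0: its SE-BDEV libraries measured 0.0518, 0.133, 0.0562 and 0.0705 FPKM, all above the highest Vehicle (0.0254 FPKM) and CON-BDEV (0.0265 FPKM) library. Such values rest on few fragments, as those of Arrdc4 do, and Gfap did not pass the filter and was not tested. Among genes that passed it, SE-BDEV did not overlap Vehicle for 10.2% and CON-BDEV for 1.39%. Gfap was highest in SE-BDEV replicate 2, as Txnip was, and its part in the Txnip values was not tested. The 5 microglia markers summed to at most 0.0808 FPKM in any library, with C1qb at 0 in all, and the endothelial marker Cldn5 and the forebrain neuron marker Neurod6 were at 0 in all.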

How the data were processed

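The authors deposited FPKM values per gene and library, which, per the submitters' processing notes, come from TopHat2 and Cuffdiff on mm9, without versions; 1 table holds SE-BDEV and Vehicle, the other CON-BDEV and Vehicle. Per the file headers, further deposited tables hold Cuffdiff's FPKM by group, with its p-value, q-value and log2 fold change. The Vehicle columns of the 2 tables differed by at most 0.0335% in their median ratio, so tables were treated as 1 scale. Log2(FPKM + 1) was fitted with limma 3.58.1 in R 4.3.3 (moderated, trend in the variance allowed, two-sided, 4 libraries a group) over genes averaging 1 FPKM or more, with Benjamini-Hochberg adjustment and a threshold of 0.05; this scale understates changes of low genes. Comparisons with Vehicle used 8 libraries, and SE-BDEV against CON-BDEV all 12, with Vehicle as the mean of both tables. The fit was tested on simulated data. Depth was approximated from the lowest FPKM values and GENCODE M21 transcript lengths of another build. Alternatives were another pseudocount, no filter, median scaling, a replicate block, 1 fit of all libraries, and each library left out. Named genes are the 7 members, listed genes that passed, 11 set partners and the 5 genes most like Txnip; Klf10, Arrdc5, Ddit4, Gfap, Aldh1l1, Nfkb2, Gm15441 and Psmc3ip were added after their values were seen. Members and lists were chosen with earlier results of these data known.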

Additional observations from a re-analysis of the deposited data

Results flagged for a closer look

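Over the 18 sets of 4 libraries (6 fitted genes in 3 groups), 1 held a library far from the others: Arrdc3 in Vehicle replicate 1, at 15.3 FPKM, where the gap to the next library was 0.893 of the group's range, above Dixon's critical value at the 95% level. Chance alone gives about 1 such set in 20.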

How the results depend on the processing

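Counts of genes called moved with the processing, while the direction of Txnip against Vehicle was positive in all 13 alternatives of each comparison. For SE-BDEV against Vehicle 104 genes passed, against 0 with no filter on low values (2021 at an unadjusted p under 0.05 in limma), 48 with a replicate block, 171 with all 12 libraries in 1 fit, and 5 to 315 with 1 library left out. For CON-BDEV against Vehicle 321 passed, against 176 with no filter, 135 with a replicate block, 133 with all 12 libraries, and 134 to 556 with 1 library left out. For SE-BDEV against CON-BDEV 0 passed in limma in the fit reported and in all 12 alternatives. The cause was not tested. With 1 library left out, the Txnip difference ran from 0.43 to 0.52 in CON-BDEV and from 0.20 to 0.46 in SE-BDEV. Txnip is treated as chosen for its rise in CON-BDEV against Vehicle, so its direction there is no sign of stability. The SE-BDEV difference shares the Vehicle libraries of that choice. The other 5 fitted genes passed in 0 alternatives, though the Arrdc3 difference in SE-BDEV ran from −0.25 to 0.06 with 1 library left out. The labels do not state a pairing of libraries by replicate number, but SE-BDEV and CON-BDEV libraries of the same number carry consecutive library names. Deviations from the group means of libraries with the same number correlated at −0.102 to 0.0357 for SE-BDEV and Vehicle. They correlated at −0.0558 to 0.0197 for CON-BDEV and Vehicle, and at −0.123 to 0.298 for SE-BDEV and CON-BDEV. For SE-BDEV and CON-BDEV 4 of 8 libraries correlated best with their own number, and 0 of 8 in the other pairs of groups. Whether SE-BDEV and CON-BDEV libraries of the same number were handled together was not tested. Depth limits Arrdc4, Arrdc5 and Mlxipl, which could not be compared.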

Other observations

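Ddit4, a stress-induced inhibitor of mTORC1 signalling from the list of glucocorticoid-responsive genes, was not past the threshold and is given for its spread, chosen after its values were seen. It measured 66.2, 65.8, 63.3 and 66.9 FPKM in Vehicle, 52.5, 101, 85.1 and 84.9 FPKM in CON-BDEV, and 56.5, 106, 57.3 and 67.5 FPKM in SE-BDEV. Replicate 2 was the highest library of both treated groups for Ddit4, as for Txnip and Arrdc3, while the 4 Vehicle libraries lay within a narrow range. Its log2 differences from Vehicle were 0.26 ± 0.15 in CON-BDEV and 0.08 ± 0.16 in SE-BDEV (standard error; limma adjusted p = 0.382 and 0.855, n = 4 each).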
